A study of Mus musculus with 8 samples.

Results

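The interferon-induced GTPases are described here as 10 genes picked by name from a table of 49492 gene symbols: Mx1 and Mx2 of the Mx family, Gbp2, Gbp3 and Gbp7 of the guanylate-binding protein (GBP) family, and Irgm1, Irgm2, Igtp, Iigp1 and Tgtp1 of the immunity-related GTPase (IRG) family. All 10 names were found, and all 10 passed the filter on low values, which kept the 16232 genes reaching a value of 1 in 2 samples or more. The names were chosen with results from these samples known, so the values of the 10 genes are a description. The number of them called in a fit across all genes is given beside the share of all genes called, nothing is read from it, and p-values are given only for other genes.

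RNA was measured in 8 polyA libraries of mouse embryonic fibroblasts (MEFs), which are connective tissue cells grown from embryos. The study asked which genes depend on arginine methylation of Pontin, an ATPase encoded by Ruvbl1 that works in chromatin remodelling complexes. WT cells carried Flag-tagged wild-type Pontin, and RA cells carried a Flag-tagged form with 2 arginines replaced by alanine. Each form was added by lentivirus to Pontin f/f MEFs, which had been made by the 3T3 protocol and were selected with hygromycin. The study removed endogenous Pontin from these lines with a Cre virus, a step not stated separately for the RNA-seq samples. Cells of each genotype were kept in normal medium (called fed below and normal in the plots), or were starved in glucose-free medium with dialyzed serum, which gave 4 groups of 2 samples. How long these libraries were starved is not given in the sources used here. Each genotype was a single stably expressing cell line, so the line and the Pontin form cannot be told apart. Gene values do not show the substitution, so the genotype labels were not checked here. Nothing in the labels says that the 2 samples of a group came from separate cultures, and p-values measure only the spread between these samples.

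Recovered reads ran from 43205841 to 56363034 per sample, and 3 reads corresponded to a value between 0.0548 and 0.069. Values are CPM, here a gene's reads scaled by a library size that the authors adjusted, and log2 differences are on the scale of log2(CPM + 1). Replicates are given in the order 1 and 2. The labelled cell type was examined with 10 fibroblast markers, whose summed level was 8515 to 8686 CPM in fed WT, 3163 to 3238 in starved WT, 8468 to 8821 in fed RA and 4189 to 4201 in starved RA. The fibroblast marker Lum was low, at most 0.363 CPM in any sample, and did not pass the filter. Among 8 lymphocyte markers 6 were at 0 reads in every sample. The 8 macrophage markers summed to between 21.1 and 26.2 CPM over the 8 samples, with Csf1r the highest of them, while the pan-leukocyte marker Ptprc was at or near 0. Sums over 5 endothelial markers were 2.62 to 3.44 CPM in fed WT, 8.92 to 9.43 in starved WT, 2.05 to 3.43 in fed RA and 6.03 to 6.38 in starved RA, and 5 epithelial markers summed to at most 3.21. The part of these differences in the results below was not tested. In bulk RNA, fewer cells expressing a gene and less of its RNA per cell cannot be told apart.

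Interferons are cytokines that cells release on sensing infection. Type I interferons (alpha and beta) and type II interferon (gamma) bind their own receptors and act through JAK kinases and STAT factors. Type I signals act mainly at DNA elements called interferon-stimulated response elements (ISRE), and gamma signals at gamma-activated sites (GAS). The Mx, GBP and IRG proteins are large GTPases among the most strongly induced products of these pathways. Mx proteins block the replication of RNA viruses, whereas GBP and IRG proteins gather on the membranes of vacuoles that hold bacteria or parasites, and some of them are tied to autophagy. Fibroblasts express them in response to interferon.

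The sequences before the start sites are shown because the 10 genes belong to families induced by interferon and because both elements are short enough to search for. The RefSeq promoter table (GRCm38.p6) matched 7 of the 10 genes: Gbp2, Gbp3, Gbp7, Irgm1, Irgm2, Igtp and Tgtp1. The letters GAAANNGAAA, on either strand, stood for the core of an ISRE, and TTCNNNGAA for a GAS. In the 250 bases before the start, an ISRE-type match was present for 7 of 7 genes, compared with 2.98% of 32851 promoters in the table. Gbp3 has a further promoter entry, and that entry held no match. By entry, the unit of the share over all promoters, 7 of 8 held an ISRE-type match. A GAS-type match was present for 4 of 7 genes (Gbp7, Irgm2, Igtp and Tgtp1), or 4 of 8 entries, compared with 7.02% of all promoters. Among relatives in the table, 4 of 9 had an ISRE-type and 3 of 9 a GAS-type match. The matches describe letters in a window and are not evidence of binding in these cells. Below, each window holds the match in capitals with 20 bases on either side, written along the strand of the gene. In Gbp3 and Irgm1 the capitals cover 2 overlapping matches.
Gbp2, chr3:142620584-142620633, plus strand: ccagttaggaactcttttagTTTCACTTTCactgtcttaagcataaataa
Gbp3, chr3:142559979-142560034, plus strand: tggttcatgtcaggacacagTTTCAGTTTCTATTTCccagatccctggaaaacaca
Gbp7, chr3:142530263-142530312, plus strand: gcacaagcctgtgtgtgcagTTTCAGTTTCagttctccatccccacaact
Irgm1, chr11:48871421-48871470, minus strand: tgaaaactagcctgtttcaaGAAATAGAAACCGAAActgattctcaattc
Irgm2, chr11:58214893-58214942, plus strand: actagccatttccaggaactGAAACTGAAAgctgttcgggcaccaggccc
Igtp, chr11:58199502-58199551, plus strand: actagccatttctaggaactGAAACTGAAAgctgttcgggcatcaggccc
Tgtp1, chr11:48992294-48992343, minus strand: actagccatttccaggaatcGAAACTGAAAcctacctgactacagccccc

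The windows of Irgm2 and Igtp were identical at 48 of 50 bases. Tgtp1 shared 36 of 50 bases with Irgm2 and 34 of 50 with Igtp, although Tgtp1 lies on the other strand of chromosome 11. The 3 GBP genes carried the motif in the opposite orientation, as TTTC repeats. Matches began between 77 bases (Tgtp1) and 24 bases (the nearer match of Irgm1) before the annotated start. In Irgm2, Igtp and Tgtp1 the GAS-type match lay just upstream of the ISRE-type match.

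**Figure D1:**
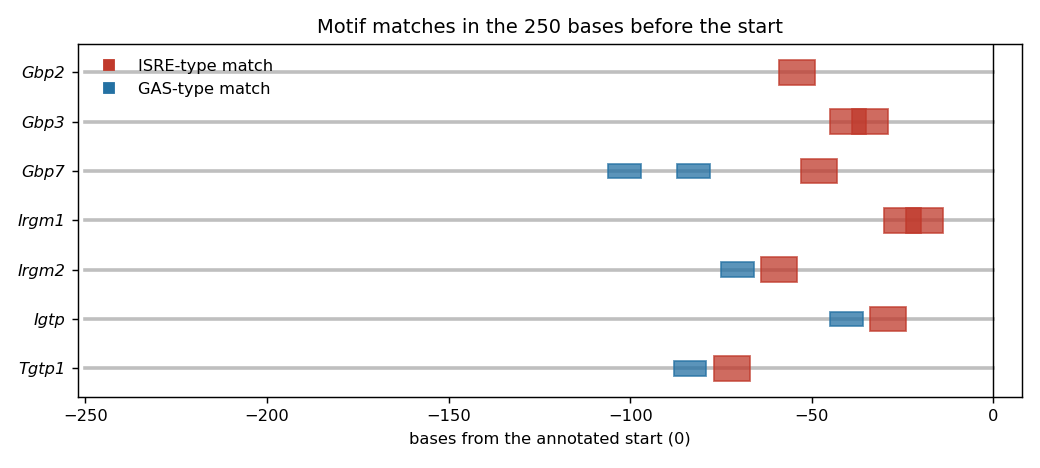
Positions of ISRE-type (red, tall) and GAS-type (blue, short) matches in the 250 bases before the annotated start (0) of the 7 genes with a RefSeq promoter entry that holds a match. The x axis is the distance from the start in bases, and all ISRE-type matches begin within 77 bases of it.

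The sum over the set is given first, since the order of the 2 RA groups differed between genes. The summed level of the 10 genes was 274 ± 4.86 CPM (SD, n = 2) in fed WT, 28.6 ± 1.14 in starved WT, 655 ± 17.4 in fed RA and 774.5 ± 4.74 in starved RA. Starved WT was thus the lowest group and both RA groups were the highest, with no overlap between groups. The families differed in the RA cells. GBP genes summed to 149 ± 3.65 CPM in fed RA and 264.5 ± 2.64 in starved RA. IRG genes summed to 456 ± 11.9 and 445 ± 7.11 CPM, whose samples overlapped, and Mx genes to 49.5 ± 1.87 and 64.8 ± 0.273.

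**Figure D2:**
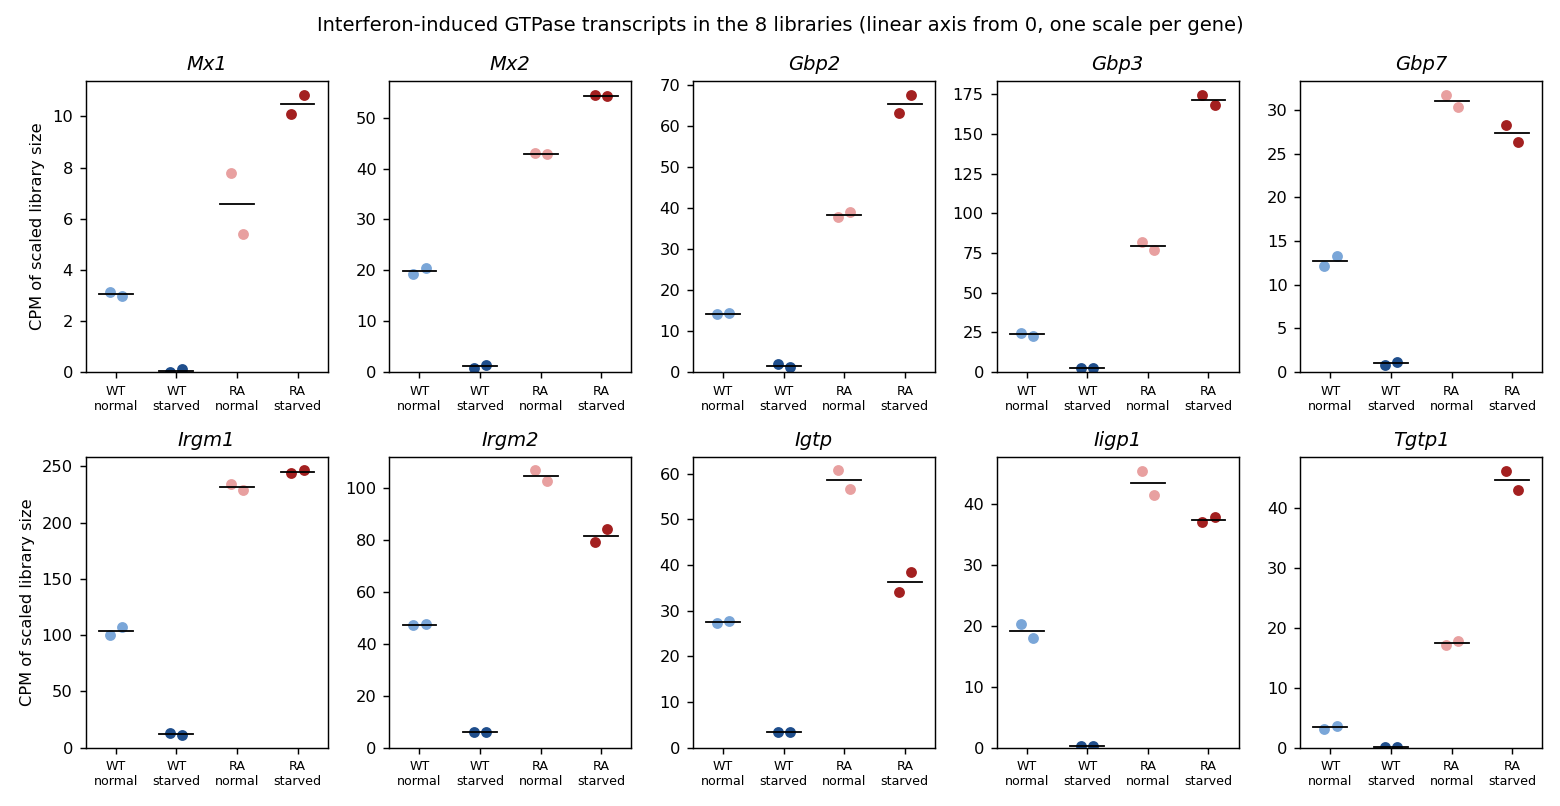
CPM of each of the 10 genes in the 8 libraries, as points for the 2 samples of each group and a line at their mean, on a linear axis from 0 with its own scale per gene. Starved WT is the lowest group for every gene, and starved RA lies above fed RA for Mx1, Mx2, Gbp2, Gbp3, Irgm1 and Tgtp1 and below it for the others.

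Mx1 encodes a nuclear protein that restricts influenza-like viruses. Mx1 stood at 3.13 and 2.98 CPM in fed WT, 0 and 0.11 in starved WT, 7.77 and 5.39 in fed RA, and 10.1 and 10.8 in starved RA. The values in starved WT rested on 0 and 6 reads. Mx2, whose product is cytoplasmic and acts against vesicular stomatitis virus, stood at 19.4 and 20.5 CPM in fed WT, 0.84 and 1.39 in starved WT, 43.1 and 42.8 in fed RA, and 54.5 and 54.2 in starved RA. Both genes lie on chromosome 16, and both are known to be defective in many laboratory strains. The gene annotation (GENCODE M21) lists Mx2 as a polymorphic pseudogene. RNA levels therefore do not tell whether an active protein is made. RA was higher than WT by 0.88 (SE 0.142) for Mx1 and 1.07 (SE 0.097) for Mx2 in normal medium, and by 3.44 and 4.72 under starvation.

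Among the GBP genes, Gbp2 encodes a protein that coats vacuoles of Toxoplasma and of some bacteria. Gbp2 stood at 14.2 and 14.3 CPM in fed WT, 1.86 and 1.17 in starved WT, 37.7 and 39.1 in fed RA, and 63.2 and 67.6 in starved RA. Gbp3 stood at 24.4 and 23.0 CPM in fed WT, 2.77 and 2.41 in starved WT, 82.3 and 77.1 in fed RA, and 175 and 169 in starved RA. In these genes the order of groups was the same, and the highest samples were those of starved RA. Gbp7 stood at 12.1 and 13.2 CPM in fed WT, 0.80 and 1.17 in starved WT, 31.7 and 30.3 in fed RA, and 28.3 and 26.4 in starved RA. Gbp7 differed from its neighbours on chromosome 3 in that fed RA was the highest group. Within a sample the ratio of Gbp3 to Gbp7 in CPM, without length scaling, was 2.59 and 2.54 in fed RA and 6.18 and 6.39 in starved RA. The ratio was 2.01 and 1.74 in fed WT and 3.47 and 2.06 in starved WT, where Gbp7 rested on 38 and 64 reads. Gbp7 shares 637 exon bases with a processed pseudogene, Gm43802, on the same strand in GRCm38, so its reads may not all be its own.

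Among the IRG genes, Irgm1, Irgm2 and Igtp encode the regulatory proteins of the family, which keep the others inactive on the cell's own membranes. Irgm1 had the highest CPM of the 10 genes in every group: 99.8 and 107 in fed WT, 13.3 and 11.6 in starved WT, 234 and 229 in fed RA, and 244 and 247 in starved RA. Irgm2 stood at 47.2 and 47.4 CPM in fed WT, 5.99 and 6.14 in starved WT, 107 and 103 in fed RA, and 79.1 and 84.0 in starved RA. The RA groups were within 1.06-fold of each other for Irgm1, whereas starved RA was below fed RA for Irgm2. Igtp stood at 27.2 and 27.7 CPM in fed WT, 3.44 and 3.43 in starved WT, 60.8 and 56.6 in fed RA, and 34.1 and 38.5 in starved RA. Igtp and Irgm2 are neighbours that share 162 exon bases on the same strand in GRCm38, and the assignment of reads there is not given in the sources used here.

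Iigp1 and Tgtp1 encode effector GTPases that load onto parasite vacuoles. Iigp1 stood at 20.3 and 18.0 CPM in fed WT, 0.25 and 0.22 in starved WT, 45.5 and 41.5 in fed RA, and 37.0 and 37.9 in starved RA. In starved WT these values were 12 reads in each sample. Tgtp1 stood at 3.17 and 3.63 CPM in fed WT, 0.15 and 0.15 in starved WT, 17.1 and 17.7 in fed RA, and 46.2 and 43.1 in starved RA, with 7 and 8 reads behind the values in starved WT. Tgtp1 and Igtp moved in opposite directions between the RA groups. The ratio of Tgtp1 to Igtp within a sample was 0.28 and 0.31 in fed RA and 1.35 and 1.12 in starved RA, compared with 0.12 and 0.13 in fed WT and 0.04 and 0.04 in starved WT. Tgtp1 has a near-identical neighbour, Tgtp2, and shares 223 exon bases with Gm12185, so the split of reads among these copies is uncertain.

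To compare levels between genes, CPM was divided by exon length in kilobases (GENCODE M21, GRCm38, which is not the build of the deposited table). In fed WT the order was Irgm1 (17.8 ± 0.875, SD, n = 2), Igtp (13.6 ± 0.187), Irgm2 (12.8 ± 0.0471), Gbp3 (7.27), Gbp2 (5.66), Mx2 (5.51), Iigp1 (3.28), Gbp7 (2.26), Tgtp1 (1.06) and Mx1 (0.81). Gbp2 and Mx2 overlapped between samples, and no other neighbours in this order did. In starved WT the leading genes were the same 3, at 2.14 (Irgm1), 1.70 (Igtp) and 1.64 (Irgm2) CPM per kilobase. Tgtp1, Iigp1 and Mx1 came last there, at 0.046, 0.040 and 0.014 CPM per kilobase. Behind these were 7 and 8 reads for Tgtp1, 12 and 12 for Iigp1, and 0 and 6 for Mx1. In starved RA the order was changed: Gbp3 was highest at 52.6 ± 1.35, followed by Irgm1 at 42.2 ± 0.369, Gbp2 at 26.0 ± 1.25, Irgm2 at 22.1 ± 0.948 and Igtp at 18.0 ± 1.53, with no overlap between any neighbours in that group. Tgtp1, the second lowest gene of fed WT, stood at 13.9 ± 0.704 there, above Iigp1 at 6.43 and Gbp7 at 4.87. In fed RA Igtp overlapped Irgm2, and Gbp7 overlapped Tgtp1.

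**Figure D3:**
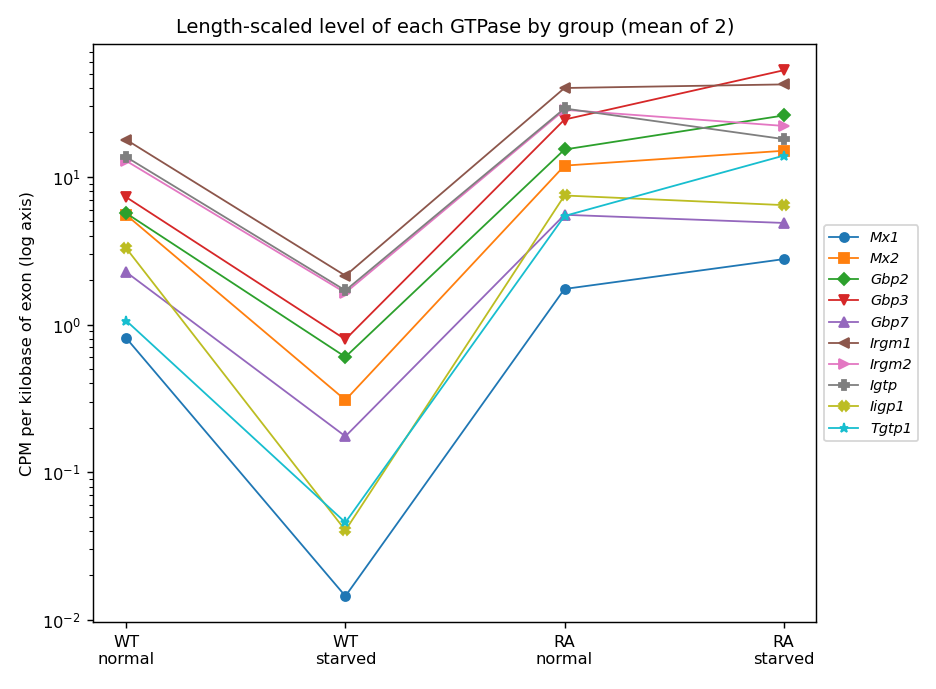
Mean CPM per kilobase of exon (log axis, n = 2) of each gene in the 4 groups, joined by lines per gene. Between fed and starved WT the lines of Mx1, Iigp1 and Tgtp1 drop most, and between fed and starved RA several lines cross, Gbp3 passing Irgm1. The Mx1 mean in starved WT includes a sample at 0 reads.

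The comparison of genotypes in normal medium asked whether the lines differed before starvation. The mean in RA was higher than in WT for 10 of 10 genes, by 2.14-fold (Igtp) to 5.12-fold (Tgtp1) in CPM, with a median of 2.26-fold. On the log2 scale the largest difference was that of Tgtp1, at 2.07 (SE 0.102), then Gbp3 at 1.71 (SE 0.063) and Gbp2 at 1.37 (SE 0.101). The other 7 genes lay between 0.88 (Mx1) and 1.23 (Gbp7). A limma fit across all genes, with a Benjamini-Hochberg (BH) adjusted p under 0.05 as the threshold, called 10 of the 10 higher, compared with 6.68% of all genes tested. A difference of at least 2-fold as well was met by 9 of 10, against 0.505% of all genes. The samples of RA lay above those of WT for all 10, compared with 28.5% of all genes. Nothing is read from these counts, because the names were chosen with them known. The median log2 difference of the 10 genes was 1.15, compared with 0.0075 over all genes.

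Under glucose starvation the same comparison gave larger differences. The mean in RA exceeded that in WT by 10.6-fold (Igtp) to 305-fold (Tgtp1), with a median of 46.0-fold. The ratio was 191 for Mx1, 159 for Iigp1, 66.3 for Gbp3, 48.8 for Mx2, 43.1 for Gbp2, 27.8 for Gbp7, 19.7 for Irgm1 and 13.5 for Irgm2. The ratios of Tgtp1, Mx1 and Iigp1 have 6 to 24 reads in all behind the lower group and are the least precise. On the log2(CPM + 1) scale, which understates the differences of low genes, Gbp3 led with 5.59 (SE 0.063), followed by Tgtp1 at 5.31 (SE 0.102) and Iigp1 at 4.96 (SE 0.086), and Igtp was lowest at 3.07 (SE 0.072). With edgeR on the recovered reads, which adds almost nothing to low values, the log2 difference was 8.25 for Tgtp1, 7.44 for Mx1 and 7.33 for Iigp1, all above that of Gbp3 at 6.08. All 10 were called higher, compared with 30.8% of all genes, and 10 were at least 2-fold higher, compared with 5.45%. The samples did not overlap for any of the 10, compared with 39.7% of all genes in this direction and 41.8% in the other. Their median log2 difference was 4.46, against -0.0081 over all genes.

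The response to starvation was then described within each genotype. These comparisons share the starved samples, or the normal ones, with the comparisons of genotypes above. In WT cells the 10 genes were lower in starved than in normal samples by 7.80-fold (Irgm2) to 81.3-fold (Iigp1), with a median of 11.1-fold. The regulatory IRG genes had similar ratios, of 8.30 (Irgm1), 7.80 (Irgm2) and 7.99 (Igtp), and so did Gbp2 at 9.38 and Gbp3 at 9.17. Gbp7 was lower by 12.9-fold, Mx2 by 17.9-fold, Tgtp1 by 23.2-fold and Mx1 by 55.8-fold. In the fit 10 of 10 were called lower, compared with 39.2% of all genes (39.3% were called higher), and 10 were at least 2-fold lower, compared with 11.7% (7.84% were 2-fold higher). The samples of starved WT lay below those of fed WT for all 10, compared with 44.1% of all genes, and 44.6% of all genes had the opposite order. The fibroblast markers also had lower sums in starved WT (above), and 8 of the 9 tested were called lower.

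In RA cells the response was mixed. The fit called 5 of the 10 genes higher in starved cells (Mx1, Mx2, Gbp2, Gbp3 and Tgtp1), compared with 35.0% of all genes, and 3 lower (Irgm2, Igtp and Iigp1), compared with 33.7%. The largest log2 differences were 1.31 (SE 0.102) for Tgtp1 and 1.10 (SE 0.063) for Gbp3, which were 2.56-fold and 2.16-fold in CPM, and both were 2-fold calls, compared with 4.44% of all genes. Gbp2 was higher by 0.75 (SE 0.101), Mx1 by 0.62 (SE 0.142) and Mx2 by 0.33 (SE 0.097). In the other direction stood Igtp at -0.68 (SE 0.072), Irgm2 at -0.36 (SE 0.052) and Iigp1 at -0.21 (SE 0.086). Irgm1 had a difference of 0.08 (SE 0.054) and Gbp7 one of -0.18 (SE 0.099), and neither was called. The call of Iigp1 was lost with a pseudocount of 0.1, without the filter, and without fed RA sample 1, starved RA sample 1 or starved RA sample 2. Gbp7 was called lower by edgeR (log2 difference -0.19) and in the fit on only the groups compared. The groups did not overlap for any of the 10 genes, 6 being higher and 4 lower, compared with 42.5% and 40.7% of all genes.

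The difference between the responses, taken as starved minus fed in RA less the same in WT, was positive for all 10 genes. It ran from 2.0 (SE 0.101) for Igtp to 3.88 (SE 0.090) for Gbp3 on the log2 scale, with 3.81 (SE 0.122) for Iigp1, 3.65 (SE 0.138) for Mx2, 3.36 (SE 0.143) for Gbp2 and 3.25 (SE 0.144) for Tgtp1. Irgm1 (3.04), Gbp7 (2.61), Mx1 (2.56) and Irgm2 (2.42) lay between. With edgeR the interactions were 6.35 for Mx1, 6.15 for Iigp1, 5.90 for Tgtp1 and 4.34 for Gbp3, so the order of the genes depends on how low values are treated. The median was 3.14, compared with -0.011 over all genes. The fit called 10 of 10 positive, compared with 24.5% of all genes (26.1% were called negative), and all 10 reached 2-fold, compared with 5.04%.

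**Figure D4:**
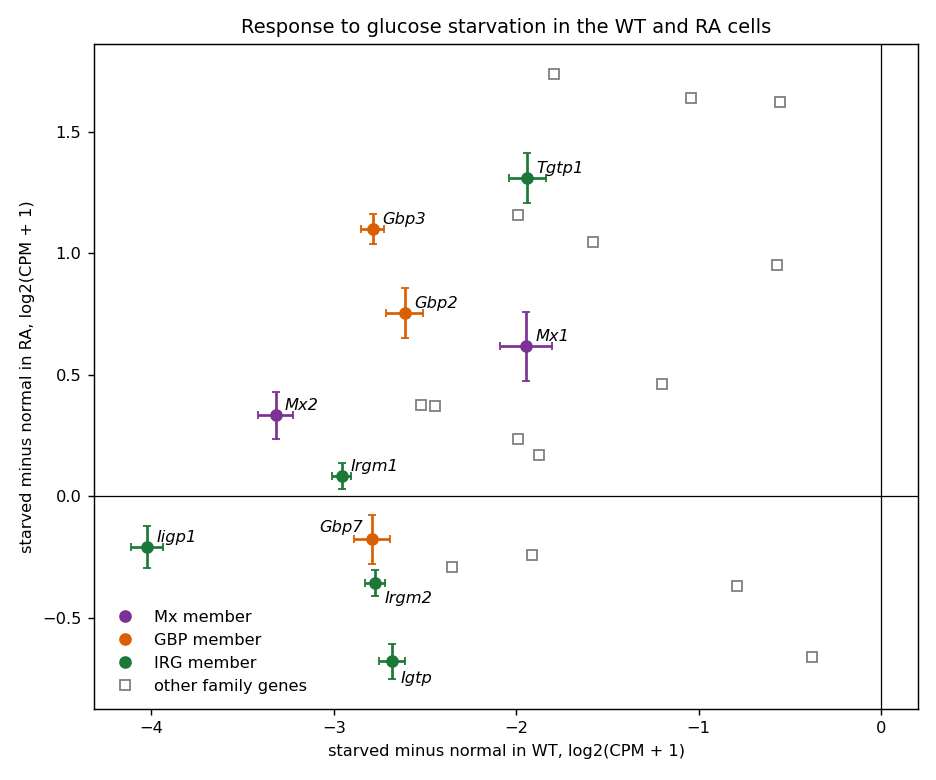
Starved minus normal on the log2(CPM + 1) scale in WT (x axis) and RA (y axis), with filled points for the 10 genes by family (bars, SE) and open squares for 15 related GTPases. Every point lies left of 0 on the x axis, the 10 genes from -4.02 to -1.94, while on the y axis they run from -0.68 to 1.31.

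Relatives of the 10 genes were taken from a list of 21 other GTPases of the same and neighbouring families, of which 20 were in the table and 15 passed the filter. Gbp4, Gbp11, Gm12250, Gm5431 and Irgc1 did not pass, with values from 0 to 1.12 CPM. Gm4841 and F830016B08Rik passed only through the RA samples, so their calls are a description and are not read as a test. The relatives were not used to choose the 10 genes, but the list was written with earlier results known. In normal medium 14 of the 15 were higher in RA (limma, BH-adjusted p under 0.05), compared with 6.68% of all genes, and none was lower, compared with 2.95%. Without the pair that passed only through RA, 12 of 13 were higher. The exception, Irgq, differed by -0.04 (limma, adjusted p = 0.848). Under starvation 14 were higher in RA and 1, Irgq, was lower by 0.32 (limma, adjusted p = 0.00859), where 30.8% of all genes were higher and 32.1% lower. Without that pair the counts were 12 and 1 of 13. In WT all 15 fell with starvation (39.2% of all genes), by 0.38 (Irgq) to 2.52 (Gm4951) on the log2 scale. The call of Irgq under starvation was lost without starved WT sample 1 (limma, adjusted p = 0.127) or starved RA sample 1 (limma, adjusted p = 0.070).

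Gbp6 and Gbp10 on chromosome 5 had, like Gbp3, their highest values in starved RA. Gbp6 stood at 7.31 and 5.99 CPM in fed WT, 1.30 and 1.10 in starved WT, 15.3 and 15.5 in fed RA, and 52.6 and 54.7 in starved RA. Its response in RA was 1.74 (SE 0.0999, limma, adjusted p = 9.53e-11), and that of Gbp10 was 1.64 (SE 0.137, limma, adjusted p = 1.25e-08). Gbp6 and Gbp10 share 1726 and 1792 exon bases with the gene model Gm43302, so they may not be separate counts. Both are included in the counts of relatives. Gbp8 and Gbp9, from the same chromosome, had RA responses of 0.23 (limma, adjusted p = 0.087) and 0.17 (limma, adjusted p = 0.248). The GBP group was therefore not uniform in RA, since on chromosome 3 Gbp2b rose by 0.95 (SE 0.107, limma, adjusted p = 5.39e-07) and Gbp5 by 0.46 (limma, adjusted p = 0.0107), while the values of Gbp7 were slightly lower. A pseudocount of 0.1 ended the call of the Gbp5 response (limma, adjusted p = 0.0633), as did no filter, DESeq2, and leaving out fed RA sample 2 or starved RA sample 2.

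Tgtp2, the near-identical copy of Tgtp1, stood at 3.26 and 3.39 CPM in fed WT, 0.15 and 0.04 in starved WT, 14.6 and 14.6 in fed RA, and 34.3 and 33.2 in starved RA. The levels and differences of this pair were alike, with a Tgtp2 difference of 1.85 (SE 0.104, limma, adjusted p = 1.5e-09) between genotypes in normal medium and 4.99 (limma, adjusted p = 1.05e-16) under starvation. Reads may have been split between them, so they are not independent results. Both are still included in the counts, Tgtp1 among the members and Tgtp2 among the relatives. Ifi47, another IRG gene on chromosome 11, stood at a mean of 5.41 CPM in fed WT, 0.18 in starved WT, 10.6 in fed RA and 14.0 in starved RA. Gvin1, a very large interferon-inducible GTPase, had the highest CPM among the relatives, without length scaling. Per kilobase of exon, Irgq was above Gvin1 in starved WT, at 2.17 compared with 1.71. The values of Gvin1 were 50.6 and 45.7 CPM in fed WT, 15.4 and 15.4 in starved WT, 124 and 112 in fed RA, and 243 and 246 in starved RA.

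The difference between the responses was called positive for 13 of the 15 relatives (limma, BH-adjusted p under 0.05), compared with 24.5% of all genes, and for 12 of 13 without the pair that passed only through RA. With a pseudocount of 1 the largest was that of Gbp6 at 3.53 (SE 0.141, limma, adjusted p = 2.83e-12), then Tgtp2 at 3.14 (limma, adjusted p = 2.46e-11) and Gm4951 at 2.90 (limma, adjusted p = 2.58e-10). With edgeR Tgtp2 (6.44), Gm4951 (6.16) and F830016B08Rik (5.89) lay above Gbp6 (4.30). Irgq had an interaction of -0.28 (limma, adjusted p = 0.0985), and was called without fed WT sample 1 or starved WT sample 2. Gm4841 had one of 0.42 (limma, adjusted p = 0.135), and was called by edgeR (4.53, BH-adjusted p = 0.000307), where its low values carry more weight. Gm4841 and F830016B08Rik are the pair that passed the filter only through RA. Their calls and p-values are a description and are not read as a test. The median over the 15 was 2.17, against -0.011 over all genes.

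Other dynamin superfamily GTPases, which remodel membranes and are not known as interferon targets, showed smaller differences. Of 10 tested, 6 were higher and 3 lower in starved RA than in starved WT (30.8% and 32.1% of all genes), with a median log2 difference of 0.37. Dnm1, a dynamin of endocytosis, stood at 54.9 and 55.1 CPM in fed WT, 12.3 and 12.6 in starved WT, 44.5 and 45.3 in fed RA, and 36.8 and 38.0 in starved RA. It fell less in RA than in WT, with an interaction of 1.80 (SE 0.076, limma, adjusted p = 6.32e-12). The interaction was 1.35 for Dnm3 (limma, adjusted p = 2.44e-06) and 0.49 for Atl3 (limma, adjusted p = 1.63e-05), an atlastin of the endoplasmic reticulum. Unlike the interferon-induced genes, Dnm1 and Dnm3 were lower in RA than in WT in normal medium (2.95% of all genes), with differences of -0.29 (limma, adjusted p = 0.00257) and -0.42 (limma, adjusted p = 0.0245). These were the 2 calls on the list in normal medium, and the list had 1 call without the filter, or without fed WT sample 1, fed WT sample 2 or fed RA sample 2.

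Genes for ligands of the interferon pathway were low, and receptors and kinases had smaller differences than the GTPases. Ifng, which encodes interferon gamma, had 0 reads in all 8 samples, which allows at most 0.069 CPM. Ifnb1, which encodes interferon beta, was low but measurable, at 0.74 and 0.73 CPM in fed WT, 0.21 and 0.22 in starved WT, 2.07 and 2.29 in fed RA, and 4.58 and 3.63 in starved RA. Ifnb1 was higher in RA than in WT by 0.87 (SE 0.135, limma, adjusted p = 4.24e-04) in normal medium and by 2.07 (limma, adjusted p = 8.3e-10) under starvation. Ifnb1 and Ifna4 passed the filter only through the RA samples, so their calls and p-values are a description and are not read as a test. Of the 12 genes listed 10 were tested, and in normal medium 2 were called, both higher (1 without fed WT sample 1 or by DESeq2). These 2 were Ifnb1 and Ifna4, and 6.68% of all genes were called higher in normal medium. Under starvation 7 were called, all higher in RA (30.8% of all genes), with a median log2 difference of 0.42. The interaction was called for 5, all positive (24.5% of all genes). It was led by Ifnb1 at 1.19 (SE 0.191, limma, adjusted p = 6.76e-05), the receptor chain Ifngr2 at 0.73 (limma, adjusted p = 5.99e-06) and the kinase Jak2 at 0.65 (limma, adjusted p = 1.64e-05).

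Most transcription factors of the pathway were higher in RA. Of 7 tested, 5 were higher in normal medium (6.68% of all genes) and 6 under starvation (30.8%), and 6 had a positive interaction (24.5%), with a median log2 difference between genotypes of 2.14 under starvation. The exceptions were Batf2, called in neither genotype comparison nor in the interaction (-0.19, limma, adjusted p = 0.305), and Irf2, not called in normal medium (limma, adjusted p = 0.143). Irf7, a factor that amplifies type I interferon expression, had its highest values in starved RA, as did Gbp3 and Tgtp1. Its values were 34.7 and 34.4 CPM in fed WT, 5.20 and 6.03 in starved WT, 85.0 and 90.0 in fed RA, and 211 and 198 in starved RA. The interaction was 3.64 for Irf7 (limma, adjusted p = 3.05e-15) and 2.47 for Stat2 (limma, adjusted p = 2.08e-14). Irf1, a factor that both types of interferon induce, had one of 1.72 (SE 0.101, limma, adjusted p = 4.88e-10), with means of 29.4 CPM in fed WT, 5.82 in starved WT, 39.9 in fed RA and 29.1 in starved RA.

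Negative regulators were also examined. Of 8 tested, 6 were higher in starved RA than in starved WT (30.8% of all genes) and 4 had a positive interaction (24.5%), with a median log2 difference of 0.84 between starved RA and starved WT. Usp18, an ISG15 protease that dampens signalling from the type I receptor, had the largest interaction, at 3.56 (SE 0.056, limma, adjusted p = 2.3e-17). Socs1, an inhibitor of JAK kinases, had one of 0.85 (limma, adjusted p = 1.29e-04), and Adar, an RNA editing enzyme, one of 0.84 (limma, adjusted p = 3.34e-09). Factors that target GBP and IRG proteins to vacuoles or act with them in autophagy were called in both directions under starvation: of 17 tested, 7 were higher and 8 lower in starved RA than in starved WT (30.8% and 32.1% of all genes), with a median of -0.098. In normal medium 10 of the 17 were called higher in RA and 0 lower (6.68% and 2.95% of all genes), with a median of 0.17. That count fell in some settings, given below. Rnf213 and Trim21, ubiquitin ligases that are themselves interferon-inducible, had interactions of 2.15 (limma, adjusted p = 5.78e-14) and 1.56 (limma, adjusted p = 1.52e-07). Map1lc3b, an LC3 protein of the autophagosome membrane, had one of -0.85 (limma, adjusted p = 4.56e-09): it rose by 1.12 (limma, adjusted p = 1.17e-13) in WT and by 0.27 (limma, adjusted p = 2.08e-05) in RA.

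Interferon-induced genes outside the GTPase families gave counts close to those of the 10 genes. All 25 tested were higher in RA than in WT, both in normal medium (6.68% of all genes) and under starvation (30.8%), and all 25 fell with starvation in WT (39.2%). In RA 16 rose (35.0%), 2 fell (33.7%) and 7 were not called. The median difference between genotypes under starvation was 3.94 on the log2 scale, beside 4.46 for the 10 GTPases and 2.86 for the 15 relatives. Ifit3, Ifit1 and Rsad2, which encode antiviral proteins, had the largest interactions on this list, of 5.28 (limma, adjusted p = 3.49e-19), 4.90 (limma, adjusted p = 8.25e-19) and 4.72 (limma, adjusted p = 1.16e-13). The list was written with earlier results known and is not independent evidence of its direction.

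**Figure D5:**
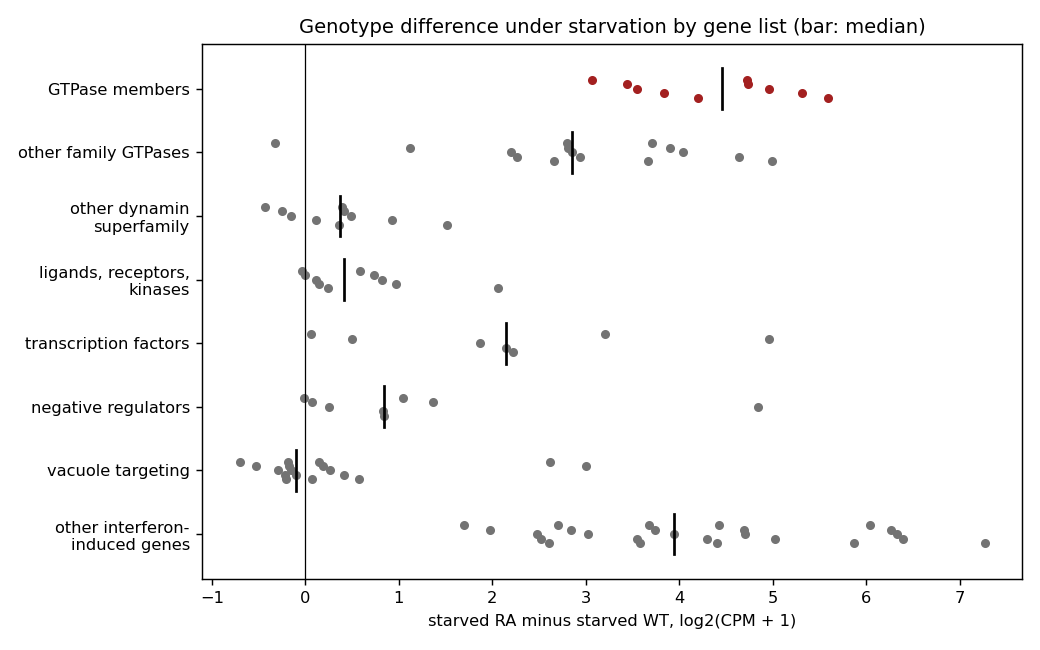
Starved RA minus starved WT on the log2(CPM + 1) scale for the genes of 8 lists, with a point per gene and a bar at the median of each list. The 10 GTPases (red) lie between 3.07 and 5.59, their relatives and other interferon-induced genes lie mostly above 1, and the dynamin, ligand and vacuole-targeting lists have medians of 0.37, 0.42 and -0.098.

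Genes with the pattern most like that of the 10 GTPases were sought among 12089 other genes with a mean of at least 5 CPM. Likeness was Pearson's r between a gene's log2 values and the mean z-score of the 10 genes over the 8 samples, given as a description because the samples fall into 4 groups and share libraries. The 5 closest were Usp18 (r = 0.9994), Serpinb1a (0.9993), Apol9a (0.9992), Apol9b (0.999) and Gm44148 (0.999). Usp18 stood at a mean of 96.1 CPM in fed WT, 9.04 in starved WT, 236 in fed RA and 288 in starved RA. Apol9a, an apolipoprotein L gene, stood at means of 89.9, 16.1, 193 and 232 CPM in the same groups. Gm44148 shares 124 exon bases with Usp18 of the other strand. Whether strand was used in counting is not given in the sources used here, so Gm44148 is listed but may not be separate from Usp18. Apol9a and Apol9b are near-identical copies, whose reads may also have been split, so the 5 genes may not all be separate results.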

How the data were processed

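RNA of 8 MEF samples (4 groups of 2) was sequenced as polyA libraries. Per the labels the submitters' processing notes name TopHat2 2.0.9, mm9, bedtools and edgeR. The read counter's settings, annotation and strand handling are not given in the sources used here. The authors deposited a signal in CPM, the reads of a gene over a library size they had adjusted (column sums 965845 to 1029723). Columns named minus and plus were read as normal medium and starvation, as the study marks them. Whole reads were recovered for 100% of values (tolerance 0.05 read), and 78.2% to 80.5% of counts from 1 to 9 were even. The libraries were paired-end, and with most low counts even, the 2 reads of a fragment may have been counted apart. Reads may then overstate the number of separate fragments, and 3 reads may be too low a floor. Read totals and the floor of 3 reads cover counting error only. Of 49492 rows, 18085 were at 0 throughout and 26 had date-like names.

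From these, log2(value + 1) of the 16232 genes with at least 1 in at least 2 samples was fitted with limma 3.58.1 (R 4.3.3), a mean per group, all 8 samples, eBayes with trend, 2-sided p-values and BH adjustment per contrast. The design foresaw CPM, and the same test was kept. The 5 contrasts were the genotypes in each medium, starvation in each genotype, and their interaction. Genes, lists and cell type markers were chosen with earlier results of these data known. Named genes were the 10 members, every relative that passed the filter, up to 3 called genes per further list by size of interaction, and the 5 most alike genes. Ifng, the markers named and the other genes of the text that no such rule picks were chosen after their values were seen. Alternatives were a pseudocount of 0.1, no filter, median-ratio and total-read scaling, a replicate block, only the groups compared, leaving out each sample, and edgeR 4.0.16 and DESeq2 1.42.0 on recovered reads. The fit was also run on simulated counts with few changed genes and a fixed spread, unlike these data. Nothing is read from that run. GENCODE M21 (GRCm38) gave exon lengths, and RefSeq (GRCm38.p6) gave chromosomes and promoters. Promoter entries were not used for Mx1, Mx2 and Iigp1. A gene of the transcription factor list is not reported here and was left out of its counts.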

Additional observations from a re-analysis of the deposited data

Results flagged for a closer look

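For 6 of the 10 genes both starved WT samples lay below both fed WT samples, and both starved RA samples lay above both fed RA samples. Of all genes, 44.1% had the first order and 42.5% the second. The share with both was not computed, so nothing is read from the count. The difference between the responses was 2.56 for Mx1, 3.65 for Mx2, 3.36 for Gbp2, 3.88 for Gbp3, 3.04 for Irgm1 and 3.25 for Tgtp1 on the log2 scale. The opposite movement is a description and was not tested as such, because these genes were chosen with results known; their calls in the fit across all genes are not used as a test of it. The response of Irgm1 in RA was not called.

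Among 15 relatives of the 10 genes the responses in WT and RA differed in 13, taken as the interaction (limma, adjusted p under 0.05). All 13 were positive, compared with 24.5% of all genes. The GBP relatives had interactions of 1.52 (Gbp2b), 1.66 (Gbp5), 3.53 (Gbp6), 2.22 (Gbp8), 2.04 (Gbp9) and 2.68 (Gbp10). The IRG relatives had interactions of 3.14 (Tgtp2), 2.82 (Ifi47), 2.90 (Gm4951), 2.17 (F830016B08Rik), 1.67 (9930111J21Rik1) and 2.06 (9930111J21Rik2), and Gvin1 had one of 2.63. F830016B08Rik passed the filter only through the RA samples, so its call is a description and is not read as a test.

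The same test picked out 18 genes of the further lists by size. Dynamin superfamily genes had interactions of 1.80 (Dnm1), 1.35 (Dnm3) and 0.49 (Atl3). Ligand, receptor and kinase genes had 1.19 (Ifnb1, which passed the filter only through the RA samples), 0.73 (Ifngr2) and 0.65 (Jak2). Transcription factors had 3.64 (Irf7), 2.47 (Stat2) and 1.72 (Irf1). Negative regulators had 3.56 (Usp18), 0.85 (Socs1) and 0.84 (Adar). Vacuole-targeting genes had 2.15 (Rnf213), 1.56 (Trim21) and -0.85 (Map1lc3b), the only negative value of the 18. Other interferon-induced genes had 5.28 (Ifit3), 4.90 (Ifit1) and 4.72 (Rsad2).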

How the results depend on the processing

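No count of members or relatives called moved by more than 1.5 times under the alternatives run, and no called log2 difference of a member or relative changed sign. Without the filter more relatives were tested, and 10 of 20 were called in normal medium, compared with 14 of 15 as reported. Irgq in normal medium, not called at -0.04, was 0.0637 without fed WT sample 1 and 0.0353 without fed RA sample 2, and with each sample left out in turn it ran from -0.141 to 0.0637. Members called remained at 10 of 10 in every setting for both genotype comparisons, starvation in WT and the interaction, and ranged from 7 to 9 (8 as reported) for starvation in RA. Leaving out each sample in turn gave 11 to 14 relatives for the genotypes in normal medium, 14 to 15 under starvation, 15 for starvation in WT, 8 to 12 in RA and 13 to 14 for the interaction. Same-numbered samples deviated together with a mean correlation of only 0.066 (-0.008 to 0.157), so the numbers were not taken as pairs; with the replicate block the counts of members were 10, 10, 10, 8 and 10 and those of relatives 14, 15, 15, 12 and 13. Of the single-gene values under an alternative, 1922 kept their direction and side of the threshold, 37 lost their call, 14 gained one and 2 (Irgq) changed sign. Vacuole-targeting genes called in normal medium numbered 10, and 5 or 6 without the filter or without fed WT sample 1, fed WT sample 2 or fed RA sample 2. With 2 samples a group, and with 6 to 24 reads behind Mx1, Tgtp1 and Iigp1 in starved WT, the sizes of their differences are loosely bounded. These reads may stand for fewer separate fragments.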
